A study of Mus musculus with 6 samples.

Results

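The 48 genes described here are markers and drivers of cell proliferation: cyclins and their kinases, the proteins that license and copy DNA, the transcription factors that switch these genes on, and the proteins that carry a cell through mitosis. They were taken by symbol from a list of cell-cycle genes, and all 48 were found among the 55471 genes of the deposited count table. All 48 also passed the filter on low counts, which left 13826 tested genes. The counts come from RNA sequencing of primary osteoblasts, the bone-forming cells, taken from 3-day-old mice of the C57BL/6 strain. In the TCKO group, Tet1, Tet2 and Tet3 each carry 2 floxed alleles, and Prx1-Cre, a recombinase active in the mesenchyme of limb buds and part of the skull, deletes them. Tet genes encode the enzymes that oxidise methylated cytosine in DNA. The controls are labelled wild type (WT), and the labels do not say whether they carry floxed alleles or Cre. There were 3 libraries per genotype, and nothing in the labels says whether they came from separate animals or cultures, so p-values measure the spread between these libraries, which may be technical.

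A proliferating cell passes from a growth phase through DNA synthesis to mitosis. D-type cyclins with Cdk4 and Cdk6, and then cyclin E with Cdk2, inactivate the retinoblastoma protein and release E2F factors, which activate the genes of DNA replication. Later, B-Myb (Mybl2) and Foxm1 activate the genes of mitosis, whose promoters typically pair a CCAAT box with a short element named CHR (cell-cycle genes homology region). In bone, osteoblast precursors divide and then largely leave the cycle as they mature. In RNA from whole cultures, a change in the share of cycling cells and a change in RNA per cell cannot be told apart.

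Total counts ranged from 8019999 to 10177214 per library. The replicate 3 libraries of both genotypes stood apart from the others. Their mitochondrial share of counts was 2.22% and 2.47%, against 1.11% to 1.24% in the other libraries, and TCKO replicate 3 alone expressed Xist (4583 counts) and lacked Ddx3y (0 counts), a female pattern, with a male pattern in the others. Of the deleted genes, Tet1 was lower in the libraries labelled TCKO (log2 fold change -0.97, edgeR adjusted p = 0.00648), Tet2 was not called (-0.14, adjusted p = 0.545) and Tet3 was higher (0.51, adjusted p = 0.00745). The counts cover whole genes, so every direction below rests on the labels.

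Most proliferation genes were more abundant in the TCKO osteoblasts, while the D-type cyclins were not. Of the 48 genes, 35 were higher in TCKO at an adjusted p under 0.05 (edgeR quasi-likelihood test, Benjamini-Hochberg adjustment over all tested genes), 1 was lower and 12 were not called. The background over all tested genes was 9.07% higher and 8.63% lower, or 17.7% in either direction. The median log2 fold change of the 48 genes was 0.72, or 1.64-fold, against 0.00 over all tested genes. In all, 45 of the 48 had a log2 fold change above 0, compared with 50% of all tested genes. Those 45 lay between 1.16-fold (Rrm1) and 2.31-fold (Mybl2) higher. The remaining 3 were the D-type cyclins Ccnd1, Ccnd2 and Ccnd3, of which Ccnd1 was called. Only 8 of the 35 were also over 2-fold higher, and Ccnd1 was over 2-fold lower, beside 3.16% and 3.19% of all tested genes. Among the 48, 43 had every TCKO library above every WT library in CPM (counts scaled to library size with TMM factors) and 2 had every TCKO library below, beside 19.4% and 18.9% of all tested genes.

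The number of calls depended on how replicates 1 and 2 were counted. Within a genotype these libraries were close to each other, with a median absolute difference over the 48 genes of 0.11 (WT) and 0.08 (TCKO) in log2 CPM, whereas WT replicate 3 differed from them by 0.52 and 0.62. When replicates 1 and 2 of each genotype were summed, which leaves 2 samples against 2, only Mcm6 remained called (edgeR adjusted p = 0.04998). In that fit 1.57% of all tested genes were called higher. With the block on top of the sums, 9 of the 48 were called higher, beside 4.22% of all tested genes, and Ccnd1 was called lower. The median log2 fold change of the 48 genes was 0.64 with the sums and 0.67 with the sums and the block. In each of these fits the same 45 genes lay above 0 and Ccnd1, Ccnd2 and Ccnd3 below 0.

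**Figure D1:**
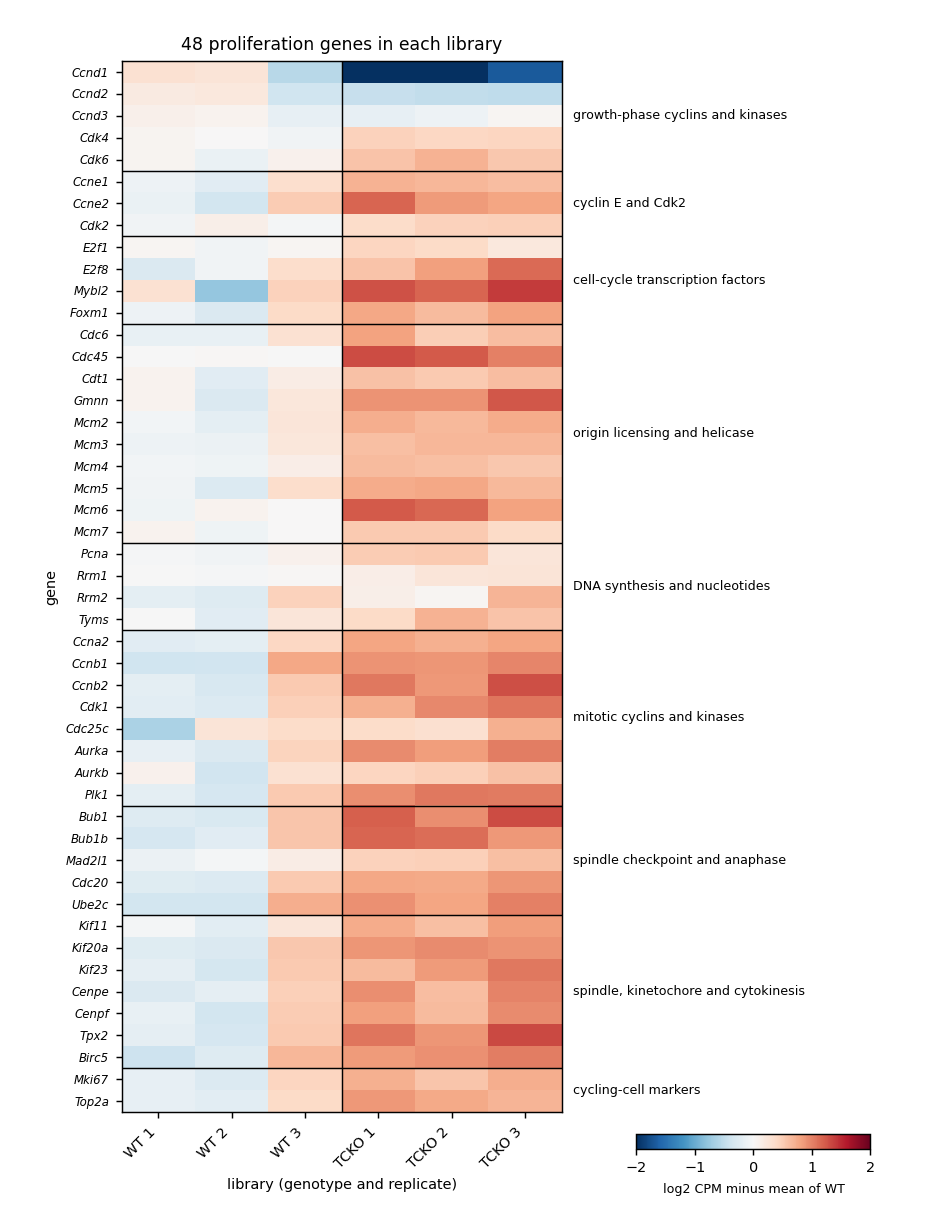
Each row is 1 of the 48 proliferation genes, ordered by role, and each column is 1 library. Colour gives log2 CPM minus the mean log2 CPM of the 3 WT libraries (red higher, blue lower, colour scale ending at 2 and -2), and most rows are red across TCKO, with WT replicate 3 also red in most mitotic rows and Ccnd1 and Ccnd2 blue across TCKO.

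Promoter sequence was examined because the role groups are known for different promoter elements. RefSeq promoter windows (GRCm38.p6, 250 bases before to 50 after the start) were found for 37 of the 48 genes, in 39 windows. Genes with no entry were Ccnd1, Ccnd2, Ccne2, Foxm1, Gmnn, Mcm4, Ccna2, Cdc25c, Aurkb, Kif20a and Tpx2. Letters were searched on both strands for E2F (TTTCCCGC, TTTGGCGC, TTTCGCGC, TTTGCCGC), for CHR (TTTGAA with its variant TTCGAA) and for the CCAAT box. An E2F match lay in 6 of 9 windows of the licensing and helicase genes (66.7%), compared with 2.26% of all 32851 windows in the table and 3.87% of those of tested genes. In the mitotic genes together with Mki67 and Top2a, 13 of 17 windows held a CHR match (76.5%), compared with 19.2% of all windows and 13.7% of those of tested genes, and the same 13 windows also held the CCAAT box, a pairing found in 7.52% of all windows. In the 18 windows of the earlier-acting groups (cyclin E, transcription factors, licensing and DNA synthesis), CHR lay in 22.2% and E2F in 38.9%. Outside the licensing genes E2F matches were few among these groups. They lay in 1 of 2 windows of cyclin E and Cdk2, 0 of 3 of the transcription factors and 0 of 4 of DNA synthesis. A match describes letters only and is no evidence of binding.

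The stretches below show these elements in genes whose values follow, as the 150 bases before each start, 5′ to 3′ on the gene's strand, with matches in capitals and overlapping matches as 1 capital run. They were chosen after the matches were known. The first 3 belong to the early steps: Mcm6 at chr1:128359706-128359855 (minus strand), Mcm5 at chr8:75109359-75109508 (plus) and Cdk2 at chr10:128705052-128705201 (minus). Each holds an E2F match and a CCAAT box, which reads ATTGG where it lies on the other strand. In Mcm6 an E2F match begins 110 bases before the start and overlaps another at 106, and another begins at 47.
Mcm6: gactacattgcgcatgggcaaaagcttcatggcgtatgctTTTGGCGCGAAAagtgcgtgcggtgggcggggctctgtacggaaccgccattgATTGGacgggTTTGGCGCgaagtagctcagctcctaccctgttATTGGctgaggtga
Mcm5: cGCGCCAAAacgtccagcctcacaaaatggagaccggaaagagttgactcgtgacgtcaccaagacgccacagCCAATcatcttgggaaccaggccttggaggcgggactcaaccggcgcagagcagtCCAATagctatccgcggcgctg
Cdk2: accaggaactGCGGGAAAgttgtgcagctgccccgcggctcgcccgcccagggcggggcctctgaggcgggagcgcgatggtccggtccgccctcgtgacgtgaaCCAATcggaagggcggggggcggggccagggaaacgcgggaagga
The mitotic genes and Top2a carry CHR matches, with TTTGAA printed as TTCAAA where it lies on the other strand, near a CCAAT box: Cdk1 at chr10:69352913-69353062 (minus), Cdc20 at chr4:118437344-118437493 (minus), Kif11 at chr19:37376232-37376381 (plus) and Top2a at chr11:99024190-99024339 (minus). The CHR match nearest the start begins 15 bases before it in Cdk1, 18 in Cdc20, 19 in Kif11 and 23 in Top2a. Cdk1 also holds an E2F match, 131 bases before its start.
Cdk1: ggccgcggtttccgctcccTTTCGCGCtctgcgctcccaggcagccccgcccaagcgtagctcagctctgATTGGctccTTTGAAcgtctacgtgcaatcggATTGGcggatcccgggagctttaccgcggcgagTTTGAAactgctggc
Cdc20: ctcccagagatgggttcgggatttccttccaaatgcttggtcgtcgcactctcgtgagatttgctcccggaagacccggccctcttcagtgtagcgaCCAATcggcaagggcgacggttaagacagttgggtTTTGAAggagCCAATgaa
Kif11: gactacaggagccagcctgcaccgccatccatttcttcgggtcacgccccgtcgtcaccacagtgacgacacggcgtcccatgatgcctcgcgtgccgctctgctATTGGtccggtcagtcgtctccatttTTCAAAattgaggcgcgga
Top2a: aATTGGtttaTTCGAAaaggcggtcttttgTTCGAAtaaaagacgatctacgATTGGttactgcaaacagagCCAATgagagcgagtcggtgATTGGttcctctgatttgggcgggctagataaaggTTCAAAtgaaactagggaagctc
Cdk6, at chr5:3343743-3343892 (plus), is shown because it was also higher in TCKO and none of these letters lay in its window.
Cdk6: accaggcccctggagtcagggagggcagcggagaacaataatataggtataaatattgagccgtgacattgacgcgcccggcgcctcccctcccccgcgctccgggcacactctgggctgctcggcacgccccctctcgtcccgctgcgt

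The growth-phase group moved in both directions. D-type cyclins were among the most abundant of the 48 transcripts per length, while their kinases Cdk4 and Cdk6 were higher in TCKO. Of these 5 genes, 2 were called higher and 1 lower, beside 9.07% and 8.63% of all tested genes. Their median log2 fold change was -0.08. In WT the highest levels of the 48 genes in TPM (a library-scaled level that corrects for exon length) were those of Ccnd2, at 637 ± 152, and Ccnd1, at 396 ± 124 (SD, n = 3), followed by Cdk4 at 199.9 ± 12.8. The ranges of Ccnd2 and Ccnd1 were wide in WT, with replicate 3 lower than the other libraries in both.

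Ccnd1 (cyclin D1, which links growth signals to the cycle; ENSMUSG00000070348, chromosome 7, 144929931 to 144939925, GRCm38) was counted 6564, 7702 and 3617 times in WT replicates 1, 2 and 3, with 1395, 1218 and 1803 counts in the matching TCKO libraries. The genotypes did not overlap, and within each genotype replicate 3 was the library nearest to the other genotype. Its mean fell from 667 ± 199 CPM to 171 ± 27.4 CPM (SD, n = 3), a 3.90-fold lower level (log2 fold change -1.96 ± 0.23, SE; edgeR adjusted p = 0.00151). Ccnd1 was called in every fit with a library left out and missed the threshold only with replicates 1 and 2 summed (adjusted p = 0.0518). Ccnd2 (cyclin D2; ENSMUSG00000000184, chromosome 6, 127125162 to 127152193) was counted 19747, 24524 and 13160 times across the WT libraries and 13329, 12032 and 13171 times across TCKO. All TCKO libraries lay below all WT libraries in CPM, but WT replicate 3 (1595 CPM) lay close to the TCKO range of 1477 to 1522 CPM. Its means were 2144 ± 476 CPM and 1498 ± 22.2 CPM, with a log2 fold change of -0.52 ± 0.16 that was not called (adjusted p = 0.0623). With the replicate number as a block, Ccnd2 was called lower (edgeR adjusted p = 0.0361), but not with the block on summed replicates 1 and 2 (adjusted p = 0.305). Ccnd3 (cyclin D3; ENSMUSG00000034165, chromosome 17, 47505051 to 47599691) was counted 1901, 2255 and 1589 times across the WT libraries and 1680, 1616 and 1967 times across TCKO. The genotypes overlapped in CPM, at 216 ± 20.4 CPM and 204 ± 14.8 CPM, with a log2 fold change of -0.08 ± 0.09 (adjusted p = 0.610).

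Cdk4 (ENSMUSG00000006728, chromosome 10, 127063534 to 127067920), the main kinase partner of the D-type cyclins, was counted 1998, 2359 and 1830 times across the WT libraries and 2822, 2509 and 2808 times across TCKO. The libraries of each genotype lay close together and did not overlap with the other genotype, at 233 ± 10.24 CPM in WT and 316 ± 5.26 CPM in TCKO. On the log2 scale the change was 0.44 ± 0.07 (edgeR adjusted p = 0.00484). At least 659 of the 3249 exon bases of Cdk4 overlap Tspan31 on the other strand, which had 4720 counts over all libraries against 14326. Cdk6 (ENSMUSG00000040274, chromosome 5, 3341485 to 3531008), the alternative partner, was counted 272, 287 and 275 times across the WT libraries and 409, 412 and 408 times across TCKO. It was 1.51-fold higher without overlap, at 47.9 ± 2.92 CPM against 31.6 ± 2.60 CPM (log2 fold change 0.60 ± 0.09, adjusted p = 0.00487). In contrast to the mitotic genes below, WT replicate 3 was the lowest WT library for Cdk4 and beside replicate 1 for Cdk6 (33.3 and 32.9 CPM), and both were called in every fit with a library left out.

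All 3 genes that act at entry into DNA synthesis were called higher in TCKO, beside 9.07% of all tested genes. Their median log2 fold change was 0.64. Cdk2 (ENSMUSG00000025358, chromosome 10, 128697939 to 128705031), the kinase of this step, was counted 225, 309 and 229 times across the WT libraries and 322, 315 and 355 times across TCKO. The genotypes did not overlap in CPM. Its means of 28.6 ± 1.94 CPM and 38.6 ± 1.61 CPM differed on the log2 scale by 0.43 ± 0.09 (edgeR adjusted p = 0.0146). The cyclins E1 and E2, which activate Cdk2, were higher by 0.64 ± 0.14 (Ccne1, adjusted p = 0.0195) and 0.90 ± 0.24 (Ccne2, adjusted p = 0.0358) on the log2 scale. In both, WT replicate 3 was the highest WT library but stayed below all TCKO libraries, at 31.9 CPM against 39.0 to 41.2 CPM for Ccne1 and 10.18 CPM against 12.4 to 16.1 CPM for Ccne2. Ccne2 is less certain, since at least 1827 of its 3495 exon bases overlap Ints8 on the other strand, which had 1567 counts over all libraries against 550.

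The transcription factors of the cycle were also all called higher, 4 of 4, beside 9.07% of all tested genes. Their median log2 fold change was 0.77. Mybl2 (ENSMUSG00000017861, chromosome 2, 163054687 to 163084688), which activates mitotic genes, had the largest fold change of the genes that were higher and, of all 48, the lowest WT level per length, 1.63 ± 0.63 TPM. It was counted 26, 15 and 29 times across the WT libraries and 54, 46 and 60 times across TCKO. The genotypes did not overlap, at 2.72 ± 1.08 CPM and 6.20 ± 0.51 CPM, and the WT libraries spanned 1.5 to 3.52 CPM. The log2 fold change was 1.21 ± 0.31 (edgeR adjusted p = 0.0316). Foxm1 (ENSMUSG00000001517, chromosome 6, 128362967 to 128376146), which acts with Mybl2 on the mitotic genes, was counted 257, 276 and 362 times across the WT libraries and 499, 419 and 521 times across TCKO. Replicate 3 was highest in both genotypes, and the genotypes did not overlap, at 34.2 ± 8.59 CPM and 55.8 ± 3.33 CPM. This corresponded to a log2 fold change of 0.71 ± 0.16 (adjusted p = 0.0226). E2f1, the activator of replication genes, rose least in this group (0.34 ± 0.09, adjusted p = 0.0358), and DESeq2 did not call it (adjusted p = 0.0672). E2f8, a late E2F that represses, was higher by 0.83 ± 0.22 (edgeR adjusted p = 0.0359).

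**Figure D2:**
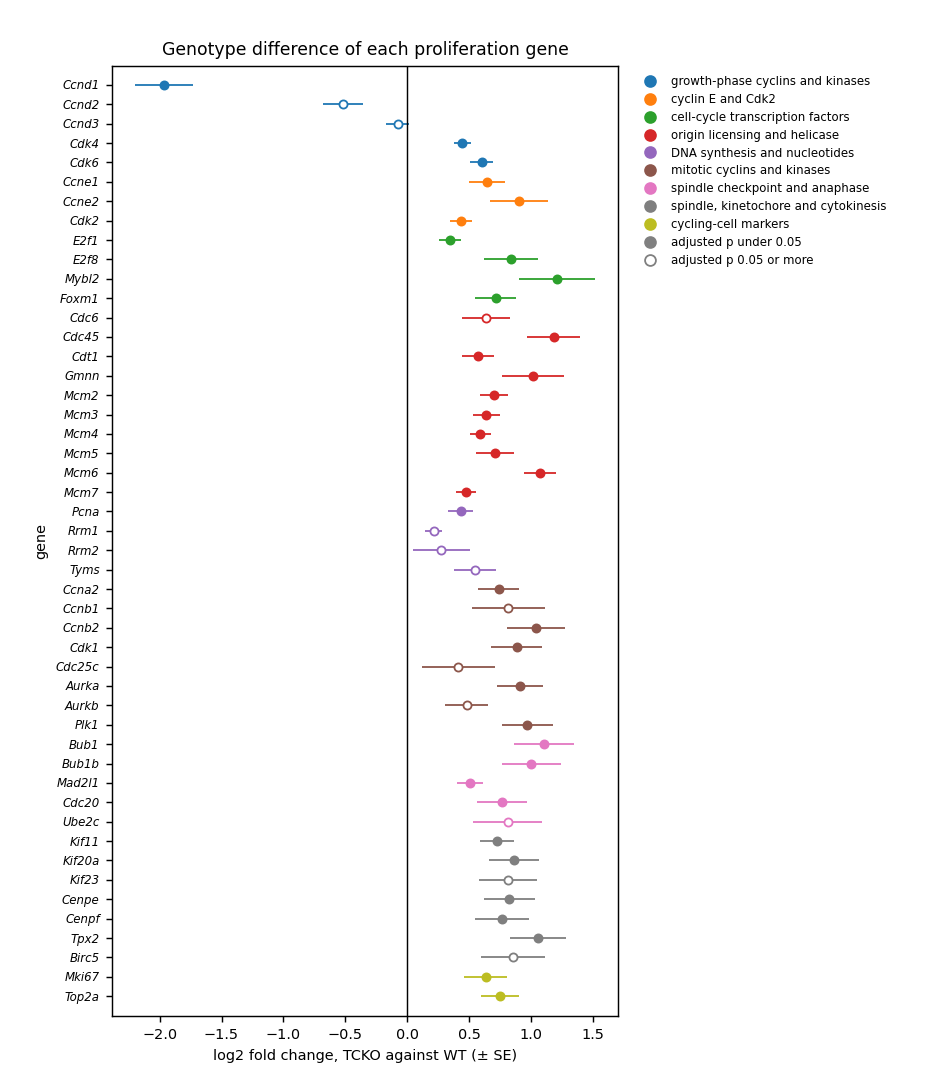
Points give the log2 fold change of each of the 48 genes in TCKO against WT, with the standard error as a bar, coloured by role and filled where the edgeR adjusted p was under 0.05. All points outside the D-type cyclins lie to the right of 0, 35 of them filled, and Ccnd1 lies alone at -1.96.

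The genes that license replication origins and unwind DNA were higher in TCKO with few exceptions. Of 10 genes, 9 were called higher in TCKO and none lower, beside 9.07% and 8.63% of all tested genes. Their median log2 fold change was 0.67. All 10 had every TCKO library above every WT library, beside 19.4% of all tested genes. Mcm6 (ENSMUSG00000026355, chromosome 1, 128331590 to 128359664), a subunit of the MCM2-7 helicase, was counted 155, 208 and 165 times across the WT libraries and 408, 353 and 309 times across TCKO. The WT libraries were alike, and among the TCKO libraries replicate 3 was the lowest. Its level rose 2.10-fold, from 19.8 ± 1.004 CPM to 41.7 ± 6.25 CPM (log2 fold change 1.07 ± 0.13, edgeR adjusted p = 0.00154). Mcm6 was called in all 19 alternative fits, the only one of the 48 genes for which this held.

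The other MCM subunits had smaller fold changes. Mcm4 (ENSMUSG00000022673, chromosome 16, 15623897 to 15637400) was counted 277, 329 and 315 times across the WT libraries and 471, 425 and 451 times across TCKO. With means of 34.9 ± 2.91 and 52.4 ± 1.63 CPM, it was higher on the log2 scale by 0.59 ± 0.09 (edgeR adjusted p = 0.00374). Mcm2 (ENSMUSG00000002870, chromosome 6, 88883474 to 88898780) was counted 293, 323 and 360 times across the WT libraries and 534, 466 and 548 times across TCKO. Its means were 37.1 ± 5.88 and 60.1 ± 1.92 CPM, a change of 0.70 ± 0.12 (adjusted p = 0.00609). In both genes WT replicate 3 was the highest WT library in CPM, and the genotypes did not overlap. Mcm7 (ENSMUSG00000029730, chromosome 5, 138164583 to 138172422) was counted 404, 440 and 385 times across the WT libraries and 583, 538 and 538 times across TCKO. It rose from 46.5 ± 2.51 to 64.6 ± 3.68 CPM, a change of 0.47 ± 0.08 (adjusted p = 0.00685). Mcm3 (ENSMUSG00000041859, chromosome 1, 20802968 to 20820312) was counted 189, 225 and 235 times across the WT libraries and 326, 312 and 344 times across TCKO. Its level of 24.6 ± 3.37 CPM in WT and 38.2 ± 0.86 CPM in TCKO corresponded to a change of 0.64 ± 0.11 (adjusted p = 0.00743). Neither Mcm7 nor Mcm3 overlapped between the genotypes. Mcm5 was higher by 0.71 ± 0.16 (adjusted p = 0.0194). All 6 MCM subunits were called, with changes between 0.47 and 1.07.

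Cdc45 (ENSMUSG00000000028, chromosome 16, 18780447 to 18811987), which joins the MCM ring to form the active helicase, was among the least abundant of the 48 genes in WT (1.65 ± 0.04 TPM). It was counted 17, 21 and 17 times across the WT libraries and 45, 39 and 37 times across TCKO. The genotypes did not overlap, at 2.07 ± 0.02 CPM and 4.71 ± 0.51 CPM, and the log2 fold change was 1.18 ± 0.21 (edgeR adjusted p = 0.00876). At least 313 of its 3506 exon bases overlap Ufd1 on the other strand, which had 2095 counts over all libraries against 176 for Cdc45, and the counting is not stated to use strand. Shorter overlaps with more abundant genes were present in Mcm7 (at least 158 bases with Cops6) and Cdc20 (at least 53 bases with Elovl1). Longer overlaps with genes of fewer counts were present in Ccnd3 (at least 1785 bases with Bysl), Ccnd1 (818 with LTO1) and Ccna2 (521 with Exosc9), besides Cdk4. Cdt1, which loads the MCM ring, was higher by 0.57 ± 0.13 (adjusted p = 0.0221), and Gmnn (geminin), which inhibits Cdt1 after origins have fired, by 1.01 ± 0.25 (adjusted p = 0.0277). Gmnn was counted 18, 17 and 20 times across the WT libraries and 34, 31 and 44 times across TCKO. Cdc6, the other loading factor, was not called (0.63 ± 0.20, adjusted p = 0.0620), although its TCKO libraries (7.21 to 8.90 CPM) all lay above its WT libraries (4.59 to 6.30 CPM).

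The genes of DNA synthesis and nucleotide supply had the smallest median among the groups with all members above 0. Of 4 genes, 1 was called higher, beside 9.07% of all tested genes, and the median log2 fold change was 0.35. Pcna (ENSMUSG00000027342, chromosome 2, 132249162 to 132253314), the sliding clamp of DNA polymerases, was counted 252, 297 and 271 times across the WT libraries and 385, 359 and 327 times across TCKO. TCKO replicate 3 was the lowest TCKO library and still lay above all WT libraries, at 36.7 CPM against 29.6 to 32.8 CPM. The means of 31.0 ± 1.66 CPM and 41.8 ± 4.40 CPM differed on the log2 scale by 0.43 ± 0.10 (edgeR adjusted p = 0.0256). The ribonucleotide reductase subunits, which make deoxyribonucleotides, were not called. Rrm1 (ENSMUSG00000030978, chromosome 7, 102441695 to 102469771) was counted 724, 862 and 739 times across the WT libraries and 847, 833 and 935 times across TCKO. Its genotypes did not overlap in CPM, but the gap was narrow, at 87.8 ± 1.78 and 101.7 ± 4.40 CPM (0.21 ± 0.07, adjusted p = 0.0694). Rrm2 was counted 806, 936 and 1263 times across the WT libraries and 1067, 928 and 1590 times across TCKO, and its genotypes overlapped, with replicate 3 the highest library in both (0.27 ± 0.23, adjusted p = 0.456). With the replicate block, Rrm2 was called higher (edgeR adjusted p = 0.0254), but not with the block on the sums (adjusted p = 0.189). Tyms, which makes thymidylate, had a log2 fold change of 0.55 ± 0.17 (adjusted p = 0.0633).

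Mitotic cyclins and kinases were called higher in 5 of 8 genes, beside 9.07% of all tested genes, with a median log2 fold change of 0.85. Cdk1 (ENSMUSG00000019942, chromosome 10, 69335146 to 69352938), the kinase that drives entry into mitosis, was counted 125, 146 and 202 times across the WT libraries and 252, 275 and 327 times across TCKO. WT replicate 3, at 24.5 CPM, lay well above the other WT libraries (15.1 and 14.6 CPM) but below all TCKO libraries (28.8 to 36.7 CPM). Its means of 18.1 ± 5.57 CPM and 33.2 ± 4.05 CPM differed on the log2 scale by 0.88 ± 0.21 (edgeR adjusted p = 0.0238). Aurka (ENSMUSG00000027496, chromosome 2, 172356190 to 172370535), the kinase of centrosomes and spindle poles, was counted 117, 131 and 179 times across the WT libraries and 269, 229 and 289 times across TCKO. WT replicate 3 was again the highest WT library without reaching TCKO, with means of 16.3 ± 4.70 and 30.5 ± 1.98 CPM and a change of 0.91 ± 0.19 (adjusted p = 0.0149). Plk1, which acts throughout mitosis, was counted 122, 134 and 199 times across the WT libraries and 282, 282 and 309 times across TCKO (0.97 ± 0.21, adjusted p = 0.0171). Cyclins A2 and B2, the partners of Cdk1, were higher by 0.74 ± 0.17 (Ccna2, adjusted p = 0.0220) and 1.04 ± 0.23 (Ccnb2, adjusted p = 0.0212).

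Cyclin B1, the main mitotic partner of Cdk1, differed most between the WT libraries of this group. Ccnb1 was counted 94, 115 and 211 times across the WT libraries and 244, 222 and 262 times across TCKO. WT replicate 3, at 25.6 CPM, lay far above the other WT libraries (11.4 and 11.5 CPM) and just below the TCKO range of 27.6 to 29.4 CPM. The log2 fold change of 0.82 ± 0.29 was not called (edgeR adjusted p = 0.0968), and with the replicate block it was (adjusted p = 0.0309), but not with the block on the sums (adjusted p = 0.168). Aurkb, the kinase of the chromosomal passenger complex, was not called (0.48 ± 0.18, adjusted p = 0.103), nor was Cdc25c, a phosphatase that activates Cdk1 (0.41 ± 0.29, adjusted p = 0.385). The genotypes overlapped for Cdc25c, which lay between 1.94 and 4.94 CPM over all libraries and was called in no alternative fit.

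**Figure D3:**
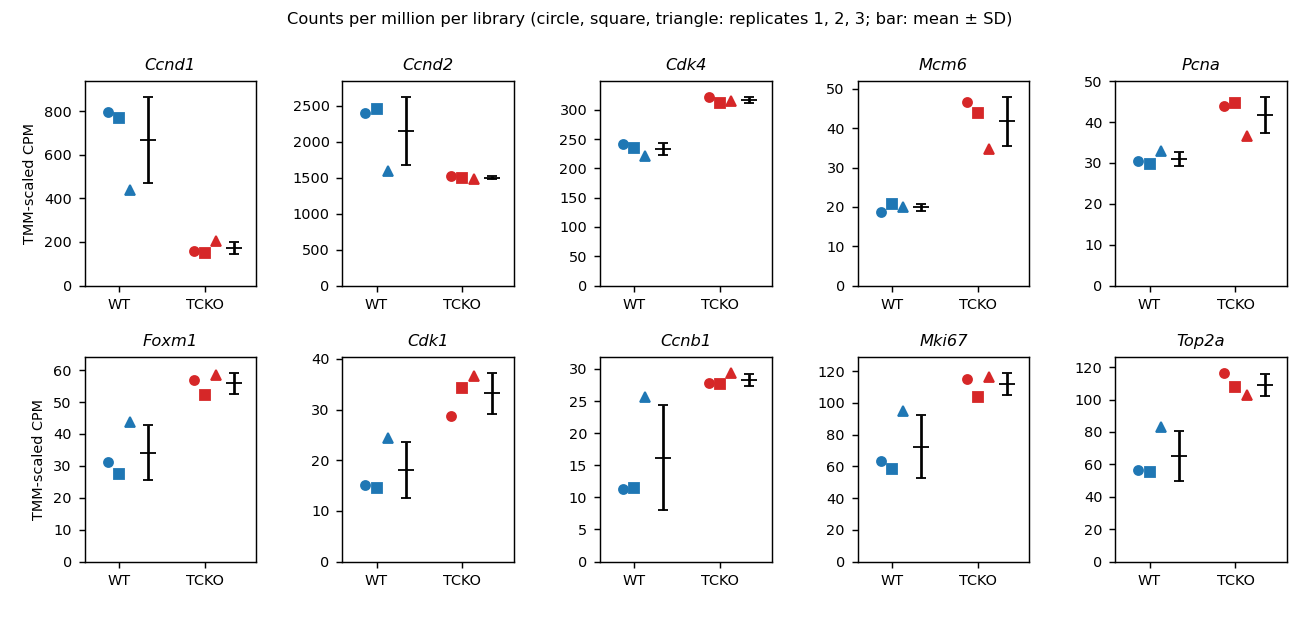
TMM-scaled CPM of 10 genes in each library, by genotype (WT blue, TCKO red) with circle, square and triangle for replicates 1, 2 and 3, and a bar for the mean and SD of 3 libraries. WT replicate 3 lies apart from the other WT libraries toward the TCKO values for Ccnd1, Ccnd2, Foxm1, Cdk1, Ccnb1, Mki67 and Top2a, and not for Cdk4 and Mcm6.

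Of 5 genes of the spindle checkpoint and anaphase, 4 were called higher, beside 9.07% of all tested genes. Their median log2 fold change was 0.81. Bub1 (ENSMUSG00000027379, chromosome 2, 127801122 to 127831865), a checkpoint kinase at kinetochores, was counted 60, 70 and 105 times across the WT libraries and 173, 133 and 191 times across TCKO. Replicate 3 was highest in both genotypes, and the groups did not overlap, at 8.99 ± 3.24 CPM and 19.2 ± 2.49 CPM (log2 fold change 1.10 ± 0.24, edgeR adjusted p = 0.0182). Its partners in the checkpoint, Bub1b and Mad2l1, were higher by 1.001 ± 0.238 (adjusted p = 0.0254) and 0.51 ± 0.11 (adjusted p = 0.0161). Cdc20, which the checkpoint restrains and which activates the anaphase-promoting complex, was higher by 0.76 ± 0.20 (adjusted p = 0.0371). Ube2c, the ubiquitin-conjugating enzyme of that complex, was not called (0.81 ± 0.28, adjusted p = 0.0863), and was called with the replicate block (edgeR adjusted p = 0.0221) but not with the block on the sums (adjusted p = 0.134). Its WT libraries lay at 13.2, 13.3 and 28.2 CPM and its TCKO libraries at 32.0, 29.3 and 34.1 CPM, so WT replicate 3 lay just below TCKO.

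Of 7 genes of the spindle, kinetochore and cytokinesis, 5 were called higher, beside 9.07% of all tested genes. Their median log2 fold change was 0.82. All 7 had every TCKO library above every WT library, beside 19.4% of all tested genes. Kif11 (ENSMUSG00000012443, chromosome 19, 37376403 to 37421859), the motor that separates spindle poles, was counted 131, 142 and 160 times across the WT libraries and 239, 200 and 261 times across TCKO. Replicate 3 was again highest in both genotypes, with means of 16.5 ± 2.67 and 27.1 ± 2.21 CPM (log2 fold change 0.72 ± 0.14, edgeR adjusted p = 0.0111). Tpx2, which activates Aurka on the spindle, was higher by 1.05 ± 0.22 (adjusted p = 0.0165). The kinetochore proteins Cenpe and Cenpf were higher by 0.82 ± 0.21 (adjusted p = 0.0318) and 0.76 ± 0.22 (adjusted p = 0.0457), and the motor Kif20a, which acts in cytokinesis, by 0.86 ± 0.20 (adjusted p = 0.0253). Kif20a is less certain than the others, since at least 3697 of its 4338 exon bases overlap Cdc23 on the other strand, which had 4356 counts against 2867. Kif23, a motor of the central spindle, and Birc5 (survivin), a passenger complex subunit, were not called, at 0.81 ± 0.24 (adjusted p = 0.0509) and 0.85 ± 0.26 (adjusted p = 0.0592). Both were called with the replicate block (edgeR adjusted p = 0.00989 and 0.0154), and neither with the block on the sums (adjusted p = 0.0620 and 0.106).

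Both markers used to recognise cycling cells were called higher, beside 9.07% of all tested genes. Mki67 (Ki-67, a protein of the surface of mitotic chromosomes; ENSMUSG00000031004, chromosome 7, 135689784 to 135716361) was counted 522, 587 and 784 times across the WT libraries and 1008, 833 and 1039 times across TCKO. Its WT libraries lay at 63.2, 58.6 and 95.04 CPM, so replicate 3 came close to the lowest TCKO library (103.5 CPM) without overlap. The means of 72.3 ± 19.9 CPM and 111.7 ± 7.12 CPM differed on the log2 scale by 0.63 ± 0.17 (edgeR adjusted p = 0.0423). Top2a (topoisomerase II alpha, which untangles sister chromatids; ENSMUSG00000020914, chromosome 11, 98992943 to 99024189) was counted 469, 556 and 685 times across the WT libraries and 1020, 869 and 918 times across TCKO. Its levels of 65.1 ± 15.5 CPM and 109 ± 6.80 CPM did not overlap (log2 fold change 0.75 ± 0.15, adjusted p = 0.0152). Of the 6 fits with 1 library left out, Mki67 was called in 1 and Top2a in 2. For both the highest value came without WT replicate 1 (edgeR adjusted p = 0.153 for Mki67 and 0.0679 for Top2a).

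Within WT, the 48 genes differed most between replicate 3 and the other libraries. WT replicate 3 was the highest WT library for 40 of the 48 genes, among them all 22 genes of the mitotic groups and cycling-cell markers, 7 of the 10 licensing and helicase genes, and all 4 of the DNA synthesis group. The matching count over all tested genes is not given here. The median level of the 48 genes was 4.23, 4.09 and 4.75 log2 CPM in WT replicates 1, 2 and 3 and 5.14, 5.13 and 5.17 in TCKO, so the TCKO libraries were nearly equal. Over all tested genes, WT replicates 1 and 2 differed from replicate 3 by a median absolute 0.20 and 0.21 log2 CPM, less than the 0.52 and 0.62 of the 48 genes. In TCKO the 48 genes differed from replicate 3 by 0.13 and 0.14, less than the 0.21 of all tested genes.

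The genotype difference was therefore also taken within the replicate sets. It was above 0 for 45 of the 48 genes within replicates 1 and 2 (49.7% of all tested genes) and for 46 within replicate 3 (50.8%). Its median was 0.87 log2 CPM within replicates 1 and 2 and 0.39 within replicate 3, against -0.0029 and 0.0067 over all tested genes. For 41 of the 48 the signed difference (TCKO minus WT) was higher within replicates 1 and 2 than within replicate 3, against 6828 of all 13826 tested genes. Among the 41 were all 22 genes of the mitotic groups and markers, whose medians were 1.05 and 0.40. In the 21 genes of the earlier-acting groups the medians were 0.77 and 0.40. The summed level of the mitotic groups and markers was 423, 405 and 674 CPM in WT replicates 1, 2 and 3 and 859, 823 and 901 CPM in TCKO. That of the earlier-acting groups was 557, 530 and 673 CPM in WT and 821, 811 and 856 CPM in TCKO. Replicate 3 has 1 library per genotype, and these differ in sex pattern, so whether the sets differ was not tested.

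**Figure D4:**
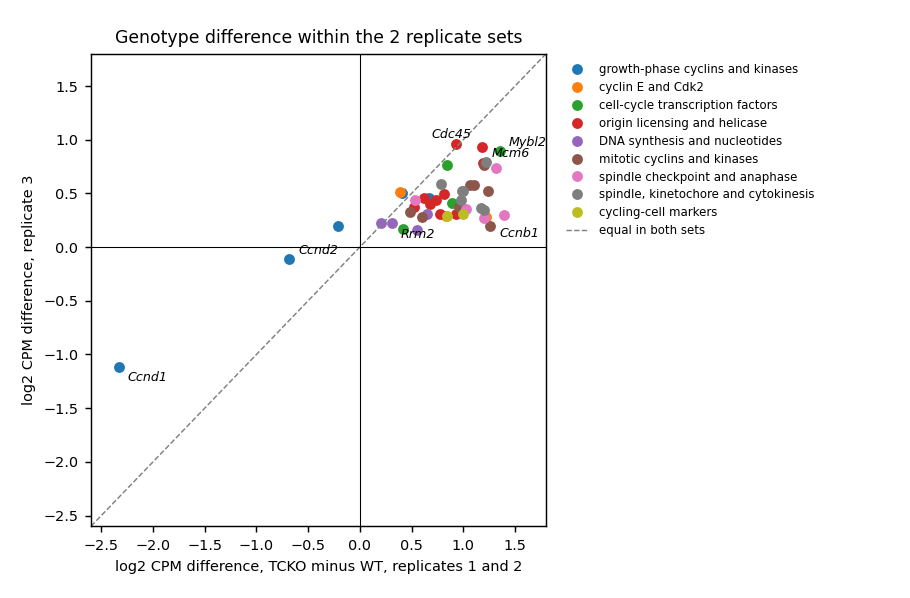
Each point is 1 of the 48 genes, coloured by role. The difference in log2 CPM between TCKO and WT within replicates 1 and 2 is on the horizontal axis, and within replicate 3 on the vertical axis. Most points lie in the upper right below the dashed line of equal differences, with medians of 0.87 and 0.39, and Ccnd1 lies far to the lower left.

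Calls were also counted with 1 library left out at a time. Of the 48 genes, 9 were called in all 6 such fits: Ccnd1, Cdk4, Cdk6, Mcm2, Mcm3, Mcm4, Mcm6, Mcm7 and Cdc45. The share of all tested genes called in all 6 is not given here, so the 9 have no background to be set against. None of the 22 genes of the mitotic groups and markers was called in all 6. Kif11 came nearest, called in 5 (highest edgeR adjusted p = 0.0529), and the others of the 22 were called in at most 3. The margin was narrow, since the highest edgeR adjusted p of Cdc45, called in all 6, was 0.0433. The count of genes called higher fell from 35 to 8 without WT replicate 1, to 10 without WT replicate 2, to 12 without TCKO replicate 1 and to 13 without TCKO replicate 2. Calls over all tested genes fell as well, to between 4.36% and 5.11% called higher. The median log2 fold change of the 48 genes stayed between 0.60 (without WT replicate 2) and 0.92 (without WT replicate 3). With the replicate number as a block, 40 of the 48 were called higher, the added genes being Birc5, Ccnb1, Kif23, Rrm2 and Ube2c, beside 12% of all tested genes. None of these 5 was called with the block on summed replicates 1 and 2.

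Wider lists of the cell cycle, which hold none of the 48 genes, were described in the same way. In the DNA replication machinery, 10 of 42 tested genes were higher and 0 lower, with a median log2 fold change of 0.45. The share called higher was 23.8%, beside 9.07% of all tested genes. The largest changes among those called were in Orc1, the large subunit of the origin recognition complex (1.31 ± 0.28, edgeR adjusted p = 0.0179), Mcm10, which helps to activate the helicase (1.11 ± 0.19, adjusted p = 0.00671), and Chaf1b of the chromatin assembly factor (0.87 ± 0.18, adjusted p = 0.0155). The smallest were in Gins2 of the helicase (0.67 ± 0.17), Clspn, a checkpoint mediator at forks (0.70 ± 0.19), and Dut, which keeps uracil out of DNA (0.76 ± 0.12). Orc1 was counted 16, 12 and 12 times across the WT libraries and 30, 37 and 30 times across TCKO, so its genotypes did not overlap. With replicates 1 and 2 summed, 1 of the 42 was called higher, beside 1.57% of all tested genes.

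In the mitotic machinery, 27 of 63 tested genes were higher and 0 lower, with a median log2 fold change of 0.73, near that of the 48 genes. The share called higher was 42.9%, beside 9.07% of all tested genes. All 63 had a log2 fold change above 0, compared with 50% of all tested genes. Lmnb1, the B-type lamin, rose most among those called, from 131, 172 and 169 counts across the WT libraries to 362, 351 and 349 across TCKO (1.21 ± 0.11, edgeR adjusted p = 0.000602). It was followed by Sgo2a, which protects cohesion at centromeres (1.13 ± 0.28), and Kif2c, a microtubule-depolymerising motor (1.09 ± 0.29). The smallest called changes were in Ncapg2 of condensin II (0.41 ± 0.10), Plk4, the kinase of centriole duplication (0.53 ± 0.15), and Racgap1 of the central spindle (0.54 ± 0.15). With the replicate block 44 of the 63 were called higher, beside 12% of all tested genes. With replicates 1 and 2 summed 2 of the 63 were, beside 1.57%.

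Calls among the upstream regulators came at shares near that of all tested genes, 17.7% in either direction. Of 22 tested E2F, retinoblastoma and MuvB genes, 3 were higher and 0 lower, a share of 13.6% beside 9.07% of all tested genes, with a median of 0.13. They were Lin9 of the MuvB core (0.74 ± 0.18, edgeR adjusted p = 0.0278), the late repressor E2f7 (0.72 ± 0.19, adjusted p = 0.0350) and Rbbp4 (0.43 ± 0.09, adjusted p = 0.0128). The retinoblastoma gene Rb1 was at 29.4 ± 1.94 CPM in WT and 27.2 ± 1.46 CPM in TCKO (-0.11 ± 0.09, adjusted p = 0.457). Of 8 inhibitors of cyclin-dependent kinases, 0 were higher and 1 was lower, a share of 12.5% beside 8.63% of all tested genes. That gene was Cdkn2b (p15, an inhibitor of Cdk4 and Cdk6), which was counted 689, 791 and 536 times across the WT libraries and 351, 315 and 234 times across TCKO. Replicate 3 was lowest in both genotypes, and the groups did not overlap, at 75.8 ± 9.62 CPM and 35.2 ± 7.73 CPM (-1.11 ± 0.17, adjusted p = 0.00454). With replicates 1 and 2 summed, 0 genes of either list were called. Cdkn1a (p21) was the most abundant of the inhibitors per length and had a log2 fold change of -0.08 ± 0.11 (adjusted p = 0.630).

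**Figure D5:**
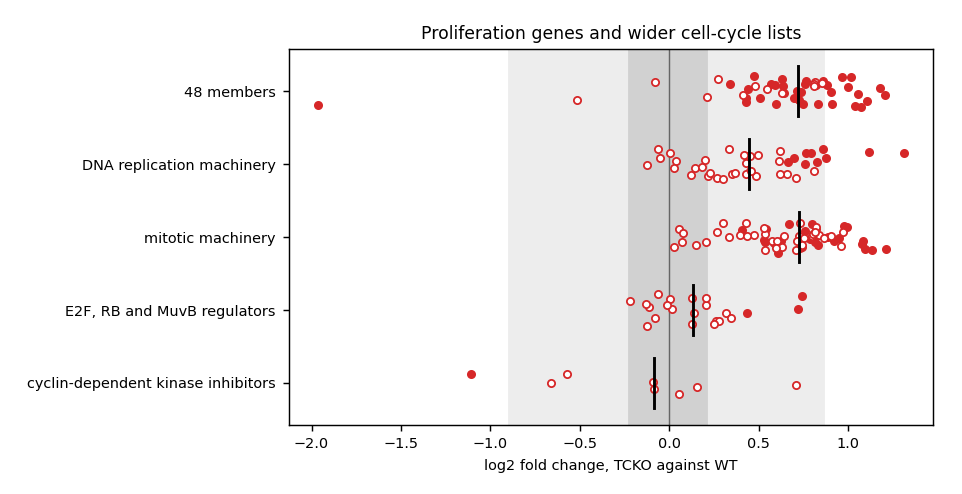
Points give the log2 fold change (TCKO against WT) of each tested gene of the 48 proliferation genes and of the 4 wider lists, filled where the edgeR adjusted p was under 0.05, with a black bar at the median of each list. Bands show the middle 50% and 90% of all tested genes, and the medians are 0.72, 0.45, 0.73, 0.13 and -0.09 from top to bottom.

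Markers of the cells that a calvarial culture can hold differed between the genotypes as well. All 5 chondrocyte markers were lower in TCKO, with a summed level of 6139 to 8071 CPM in WT and 682 to 957 CPM in TCKO. Of 7 tested osteoblast markers, 3 were lower (Runx2, Alpl and Col1a1) and 1 higher (Spp1), and Bglap, the marker of mature osteoblasts, had at most 2 counts in any library. All 9 macrophage markers had a log2 fold change below 0, with 2 called lower (Csf1r and Adgre1) and a summed level of 410 to 769 CPM in WT and 167 to 584 CPM in TCKO. Of 6 endothelial markers, Kdr was called higher, and the other 5 had at most 8 counts in any library. Muscle markers summed to at most 8.85 CPM and epithelial markers to at most 0.457 CPM in any library. The part of these differences in the levels of the proliferation genes was not tested.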

How the data were processed

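RNA was sequenced with a directional poly(A) kit, per the labels. The authors aligned the reads with STAR 2.7.0e and obtained exon counts of each gene from featureCounts 2.0.0 (versions from the submitters' processing notes), on GRCm38 with the Ensembl release 99 annotation. The deposited values are raw counts for 55471 genes in 6 libraries, with no normalization. Use of strand and the treatment of reads shared by several genes are not given in the sources used here, so overlapping genes are less certain. Symbols were matched by gene identifier for 55144 genes (99.41%), and 0 columns of sample values were left unassigned. Groups and replicate numbers came from the sample titles.

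In edgeR 4.0.16 (R 4.3.3), counts were tested after the default filterByExpr filter and TMM scaling, by the two-sided quasi-likelihood test of genotype over all 6 libraries and Benjamini-Hochberg adjustment over 13826 genes. A gene was called at an adjusted p under 0.05. CPM values were TMM-scaled, standard errors came from the quasi-likelihood F statistic, log2 CPM of the fits used a prior count of 2, and TPM used the deposited exon lengths. At this depth 3 counts, the number a true 0 can hide, were 0.299 to 0.373 CPM, which covers counting error only. The code was tested on simulated data.

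The 48 genes and all lists were chosen with earlier results of these data known. Genes given in full were the 12 with the smallest adjusted p, the 4 highest and 4 lowest by fold change, the 2 highest and 2 lowest by WT TPM, and Mki67, Top2a, Pcna, Ccnd1, Cdk1 and Foxm1. From wider lists, the 3 highest and 3 lowest called genes with a mean of at least 20 counts were named. Rb1, Cdkn1a and the printed counts of other genes were chosen after their values were seen.

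For the block, the replicate numbers were taken to pair the libraries of the 2 genotypes, which is an assumption for numbers 1 and 2. Deviations of same-numbered libraries from their group means correlated across genes at 0.204, 0.214 and 0.347 for numbers 1, 2 and 3. Crossed pairs of replicates 1 and 2 were as close (0.225 and 0.188). Deviations cancel within a genotype, so a shared deviation of replicate 3 can give positive values in either pairing. These correlations therefore cannot decide how replicates 1 and 2 pair. Over the proliferation genes alone, same-numbered pairs gave 0.060, 0.215 and 0.219. Crossed pairs of replicates 1 and 2 gave -0.001 and 0.203. Alternatives were RLE or upper-quartile factors, all genes with 1 count or more, genes with a mean of 50 counts or more, RPKM over 0.24, DESeq2 1.42.0 with and without that RPKM filter, a robust fit, the replicate block, replicates 1 and 2 summed with and without the block, both replicate 3 libraries left out, and each library left out in turn. Scaling to library totals was chosen after seeing the data.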

Additional observations from a re-analysis of the deposited data

How the results depend on the processing

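In every alternative fit each of the 48 genes that was tested kept its direction, and the median log2 fold change stayed between 0.60 and 0.92. All 48 were tested in each fit except that of genes with a mean of 50 counts or more, where 44 were. Of the single-gene results of the 48 genes, 694 kept their side of the threshold, 171 lost the call and 43 gained it. With replicates 1 and 2 summed, 386 genes were called in all (2447 in the main analysis), 1 of the 48 was higher and 0 lower, and 1 gene of DNA replication, 2 of the mitotic machinery and 0 of the E2F and retinoblastoma list were higher, with 0 inhibitors lower. With the sums and a replicate block together, the counts were 1150 in all, 9 of the 48 higher, and 3, 8 and 0 for the lists. Over all tested genes the sums gave 1.57% higher and 1.22% lower, and the sums with the block 4.22% and 4.09%. Without both replicate 3 libraries, 6237 genes were called and 3 of the 48 were lower. Higher were 24 of 42 genes of DNA replication, 57 of 63 of the mitotic machinery and 7 of 22 of the E2F list. Of 8 inhibitors, 1 was higher and 3 lower. In that fit 22.6% of all tested genes were called higher and 22.5% lower. Of the 48, 2 were called lower with no filter, with DESeq2 (with or without the RPKM filter) and with the replicate block. In those fits 5.42% to 11.5% of all tested genes were called lower. The mitotic machinery had 44 higher with no filter, beside 5.63% of all tested genes, and 44 with the replicate block, beside 12%. The replicate block, which pairs libraries of the same number, removed no call among the 48. Leaving out each library in turn gave 1153 to 3122 calls in all, 8 to 42 of the 48 higher and 1 to 2 lower, 5 to 15 genes of DNA replication, 4 to 53 of the mitotic machinery and 0 to 4 of the E2F list higher, and 0 to 1 inhibitors higher and 1 to 2 lower. Over all tested genes these fits called 4.36% to 11.7% higher and 3.98% to 10.9% lower. The cause of these moves was not tested. Scaling to library totals, chosen after seeing the data, moved the median of all tested genes to 0.03 and left the 48 genes at 0.75. Genes with under 50 counts on average, such as Mybl2, Cdc45, Gmnn and Cdc25c, are the least precisely measured.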
